A study of Mus musculus with 18 samples.

Results

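Mitochondrial DNA is a small circular genome that is kept in many copies in each cell. It encodes core subunits of 4 of the enzyme complexes of oxidative phosphorylation, the rRNAs of the mitochondrial ribosome and a set of tRNAs, while all other respiratory subunits are encoded in the nucleus and imported. Both of its strands are transcribed as long precursors that are cut at the tRNAs, and regulatory T cells (Tregs) are known to rely on mitochondrial respiration. The 10 genes described here are mitochondrially encoded subunit genes: mt-Nd1, mt-Nd2, mt-Nd4, mt-Nd5 and mt-Nd6 of complex I, mt-Cytb of complex III, mt-Co1, mt-Co2 and mt-Co3 of complex IV and mt-Atp6 of complex V. They were chosen by name, with earlier results of these libraries known, as the rows of the count table whose Ensembl identifier belongs to 1 of these symbols. All 10 were found among 50600 rows, and they are 10 of the 13 protein genes and of the 37 genes that the annotation places on the mitochondrial chromosome.

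RNA-seq was performed on Tregs sorted from C57BL/6 mice with and without CD25, the alpha chain of the IL-2 receptor, which is encoded by Il2ra. In the thymus, 5 WT mice that carry the Foxp3/RFP reporter were compared with 5 Treg-targeted conditional CD25 KO mice, in which floxed CD25 is deleted by a YFP/Cre fusion driven from the Foxp3 locus, all at 3 to 4 weeks of age. The thymic KO mice, and not their controls, had been kept free of autoimmunity by WT splenocytes given intravenously after birth, so the deletion, the reporter line and the transfer cannot be told apart. In the spleen, 4 WT reporter controls were compared with 4 CD25 KO mice, in which floxed CD25 is deleted by the tamoxifen-inducible eGFP-Cre-ERT2 driven from Foxp3 and a R26Y allele marks the cells with YFP. Both groups received tamoxifen at 7 to 10 weeks of age, and Tregs were taken 10 to 14 days later. The numbers that name the mice are labels and do not pair a KO mouse with a WT mouse.

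Libraries held 17239774 to 23993674 counts in the thymus and 25258341 to 32639570 counts in the spleen. Levels are given as CPM, counts scaled to a common library size by the TMM method. Il2ra averaged 625 ± 74.9 CPM (SD, n = 5) in thymic WT and 168 ± 92.1 in thymic KO Tregs, and 507 ± 23.0 against 181 ± 17 in the spleen (n = 4), with no overlap in either tissue. All 7 Treg markers were detected in every group, and summed to 3444 to 4390 CPM in thymic WT, 3056 to 3766 CPM in thymic KO, 3218 to 3435 CPM in splenic WT and 3330 to 3690 CPM in splenic KO libraries. Foxp3, the defining factor of Tregs, was lower in KO libraries of both tissues (log2 fold change -0.74, adjusted p = 0.00101 in the thymus, and -0.55, adjusted p = 6.9e-06 in the spleen, edgeR). Of the 7 markers, 4 passed FDR < 0.01 as lower and 0 as higher in the thymus (6.16% of all genes passed). Tnfrsf18 was among the 4 (-0.44, adjusted p = 0.00538). In the spleen 2 passed as lower and 3 as higher (9.45% of all genes passed). The higher ones were Ikzf2, Cd4 and Cd3e, with log2 fold changes of 0.37, 0.32 and 0.24 (edgeR adjusted p = 0.000859, 0.000675 and 0.00724). A separate fit, described below, removed a trend with the GC content of the genes. There 3 of the 7 passed as lower in the thymus, without Tnfrsf18 (edgeR adjusted p = 0.0617). In the spleen 2 passed as lower and 2 as higher, without Cd3e (adjusted p = 0.0113). Of all genes, 4.64% and 9.95% passed in that fit. In the spleen the B cell marker Pax5 was at 1.5 ± 0.515 CPM in WT and 3.11 ± 0.362 CPM in KO libraries (adjusted p = 0.00352, edgeR), and the myeloid marker Lyz2 at 5.98 ± 2.27 and 12.2 ± 1.61 CPM (adjusted p = 0.00132). Summed over 7 B cell markers the level was 20.3 to 22.0 CPM in splenic WT and 19.9 to 23.9 CPM in splenic KO libraries, and over 8 myeloid markers 16.5 to 22.8 and 21.3 to 28.3 CPM. The myeloid sum includes Lyz2. Of 5 myeloid markers tested in the spleen, 2 had a higher and 3 a lower mean in KO libraries, with a median log2 fold change of -0.21. Of 4 B cell markers tested there, 3 had a higher and 1 a lower mean (median 0.37). Summed over 7 markers, immature thymocyte transcripts reached 46.3 to 204 CPM in thymic WT and 59.0 to 125.2 CPM in thymic KO libraries, and the part of these markers in the results below was not tested. The noncoding transcript Gm26917 took 9.79 to 11.4% of the counts in thymic WT and 5.76 to 9.17% in thymic KO libraries, and 11.9 to 14.3% against 9.38 to 10.9% in the spleen. With Gm26917 and the mitochondrial genes left out of the library sizes, the median log2 fold change of the members was 0.22 instead of 0.21 in the thymus and 0.18 instead of 0.19 in the spleen. Because these are bulk samples, a lower count can come from fewer cells of a type or from less RNA per cell, and these cannot be told apart.

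Only 7 of the 10 genes could be measured. The other 3, mt-Co2 and mt-Co3, which encode core subunits of cytochrome c oxidase, and mt-Atp6, which encodes the proton channel subunit of ATP synthase, held 0 to 13 counts in every library and failed the filter on low counts in both tissues. Next to them on the same strand, mt-Co1 held 73648 to 171514 counts. mt-Co2 lies on the mitochondrial chromosome at 7013 to 7696, mt-Atp6 at 7927 to 8607 and mt-Co3 at 8607 to 9390 (GRCm38, all on the + strand).

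The reads were 75 bases long, and each gene was cut into all of its 75-base windows and searched among the other annotated transcripts. Of the windows of mt-Co2, 99.5% also occurred elsewhere, as did 99.5% of mt-Atp6 and 99.9% of mt-Co3. Their partners are the unprocessed pseudogenes Gm28661, Gm10925 and Gm28437, which match the mitochondrial genes at 100% of 681, 678 and 783 aligned bases. The pseudogenes held few counts as well, 0 to 20, 0 to 12 and 0 to 14 per library, so the counts were low at both places. These pseudogenes lie side by side on the − strand of chromosome 1, between 24613189 and 24615565, within a copied stretch of mitochondrial DNA whose annotated genes run from 24611535 to 24616197. The opening 60 bases of mt-Co2 (M, 7013 to 7072) and of Gm28661 (1, 24615506 to 24615565) are shown because a read from either place is the same:
mt-Co2: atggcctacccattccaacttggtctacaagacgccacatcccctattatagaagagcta
Gm28661: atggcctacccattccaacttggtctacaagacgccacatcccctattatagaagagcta

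The copy on chromosome 1 also reaches into 2 genes that did pass the filter. Of the windows of mt-Nd4, 61.5% were shared, all with Gm28439, and of those of mt-Co1, 39.8% were shared with Gm29216 on chromosome 1 and with Gm13340 on chromosome 2. mt-Nd2 shared 5.7% and mt-Nd5 1.7% of their windows, and mt-Nd1, mt-Nd6 and mt-Cytb shared none. How the counting treated reads with several matches, and whether it used the strand, is not given in the sources used here. The levels of mt-Nd4 and mt-Co1 are therefore uncertain. mt-Atp8, which is no member, held 0 to 1 counts although none of its windows was found in another annotated transcript. It lies between mt-Co2 and mt-Atp6, in the part whose chromosome 1 counterpart falls between annotated pseudogenes, and no genome sequence was searched.

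**Figure D1:**
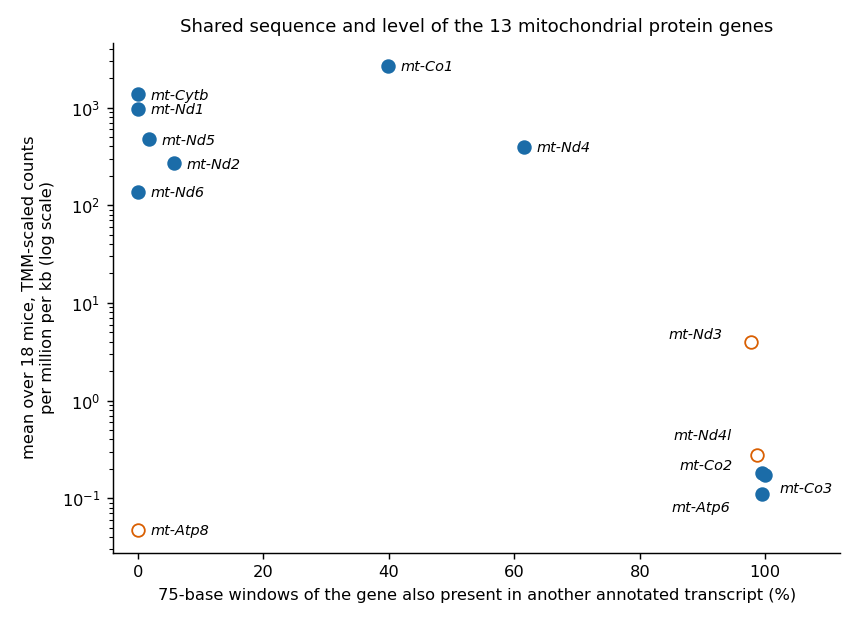
Each point is 1 of the 13 mitochondrial protein genes, with the share of its 75-base windows that occur in another annotated transcript (x axis, %) against its mean over 18 mice in TMM-scaled CPM per kb (y axis, log scale). Filled points are the 10 members and open points the other 3 genes. The 5 genes at the right share 97.8 to 99.9% of their windows and sit far below the 7 members that could be tested.

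Per kilobase of gene, mt-Co1, the catalytic subunit of cytochrome c oxidase, was the most abundant of the 7 measured members, with 2563 ± 74.6 CPM per kb in thymic WT Tregs (SD, n = 5). It was followed there by mt-Cytb at 1299 ± 71.0 and mt-Nd1 at 939 ± 94.3 CPM per kb. These 3 did not overlap with one another over the 5 mice. Below them came mt-Nd5 at 357 ± 58.3, mt-Nd4 at 342 ± 59.4, mt-Nd2 at 243 ± 46.6 and mt-Nd6 at 155 ± 22.9 CPM per kb. The ranges of mt-Nd5 and mt-Nd4, of mt-Nd5 and mt-Nd2, of mt-Nd4 and mt-Nd2 and of mt-Nd2 and mt-Nd6 overlapped. Per kilobase of windows that are not shared, mt-Nd4 stood at 939.6 ± 163 CPM in these mice, beside mt-Nd1 at 1018 ± 102. In the other 3 groups mt-Nd4 stood above mt-Nd1 by that measure, with 1084 ± 82.2 against 918 ± 87.2 CPM in splenic WT Tregs, and the ranges of these genes overlapped in every group. Per kilobase of whole gene, mt-Co1, mt-Cytb and mt-Nd1 again led in splenic WT Tregs, with 2573 ± 158, 1238 ± 70.1 and 847 ± 80.4 CPM per kb (n = 4), and mt-Nd6 was again lowest at 80.7 ± 8.94.

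Together the members took a small share of each library. In thymic WT Tregs it was 0.770, 0.705, 0.795, 0.786 and 0.787% of the counts of mice 1 to 5, and in thymic KO Tregs 0.812, 0.855, 0.924, 0.851 and 1.09%. All 5 thymic KO mice were thus above all 5 WT mice, with KO mouse 5 highest and WT mouse 2 lowest. The separation did not hold without Gm26917 in the total. Then the share was 0.794 to 0.888% in thymic WT and 0.872 to 1.15% in thymic KO mice, and the groups overlapped through KO mouse 1. In the spleen the share was 0.866, 0.770, 0.777 and 0.707% in WT mice 1 to 4 and 0.655, 1.13, 0.719 and 1.09% in KO mice 1 to 4. Splenic KO mice 2 and 4 stood above every WT mouse and KO mouse 1 below every WT mouse, so the splenic groups overlapped.

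In the thymus, no member passed the threshold of FDR < 0.01 in edgeR's quasi-likelihood test, while 6.16% of the 16986 genes tested did. All 7 measured members had a higher mean in KO than in WT Tregs, with log2 fold changes from 0.10 to 0.51 and a median of 0.21, where the median over all genes was -0.0022. Unadjusted p was under 0.05 for 3 of the 7, against 37.9% of all genes. WT and KO mice did not overlap for mt-Nd4, mt-Nd5 and mt-Cytb, and they did not overlap for 16.3% of all genes.

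Complex I takes electrons from NADH, and its mitochondrial subunits form the membrane arm that pumps protons. mt-Nd5, at the far end of that arm, differed most in the thymus. Its level was 719.8, 470.4, 668, 660.4 and 738 CPM in WT mice 1 to 5 and 748, 937, 955, 792 and 1199 CPM in KO mice 1 to 5. Every KO mouse was above every WT mouse, although KO mouse 1 exceeded the highest WT mouse by little. The log2 fold change was 0.51 ± 0.139 (SE), a 1.42-fold difference, with an adjusted p of 0.0228 (edgeR's quasi-likelihood test, Benjamini-Hochberg). mt-Nd5 also took a larger part of the counts on the 7 members in KO Tregs, 9.46 to 11% against 6.52 to 9.23% in WT mice, and was the only member whose part did not overlap between the thymic groups.

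mt-Nd4, a neighbouring pump subunit whose gene is partly shared with chromosome 1, was at 499, 329.8, 524, 479 and 528 CPM in thymic WT mice and at 538, 564, 609, 543 and 698 CPM in KO mice. The groups did not overlap, and WT mouse 2 was far below the other WT mice. The log2 fold change was 0.32 ± 0.12 with an edgeR adjusted p of 0.0675. mt-Nd2 was at 253, 169, 279.7, 274 and 286 CPM in WT and at 213, 321, 366, 282 and 508 CPM in KO mice. Here KO mouse 1 fell among the WT mice, and the log2 fold change of 0.42 ± 0.203 had an adjusted p of 0.148. mt-Nd1, which sits where the membrane arm meets the rest of complex I, was at 900.1, 752, 983, 897 and 961 CPM in WT and at 874, 1000.3, 1009.6, 1005 and 1179 CPM in KO mice. KO mouse 1 again lay within the WT range and the other 4 KO mice above it, and the log2 fold change was 0.17 ± 0.0879 with an adjusted p of 0.169.

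mt-Nd6 is the only protein gene on the opposite strand of the mitochondrial chromosome (13552 to 14070, − strand) and overlaps the end of mt-Nd5. Without strand, its reads cannot be told apart from those of the antisense precursor. Its level in the thymus was 80.1, 62.7, 77.4, 89.6 and 93.1 CPM in WT and 51.5, 81.8, 92.0, 64.2 and 146 CPM in KO mice. Only KO mouse 5 was above the WT range, and KO mouse 1 was below it. The log2 fold change of 0.11 ± 0.225 (adjusted p = 0.75, edgeR) became -0.15 ± 0.155 without KO mouse 5.

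mt-Cytb, the cytochrome b of complex III, was at 1494, 1344, 1529, 1532 and 1533 CPM in thymic WT mice and at 1535, 1624, 1768, 1554 and 2122 CPM in KO mice. The groups touched, with KO mouse 1 just above WT mouse 5, and the log2 fold change was 0.21 ± 0.0882 with an edgeR adjusted p of 0.1. mt-Co1 was at 3854, 4083, 4081, 3857 and 3922 CPM in WT and at 3891, 4065, 4126, 4133 and 5070.4 CPM in KO mice. These ranges overlapped, KO mouse 5 stood apart from the other 4, and the log2 fold change was 0.10 ± 0.0753 with an adjusted p of 0.331.

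**Figure D2:**
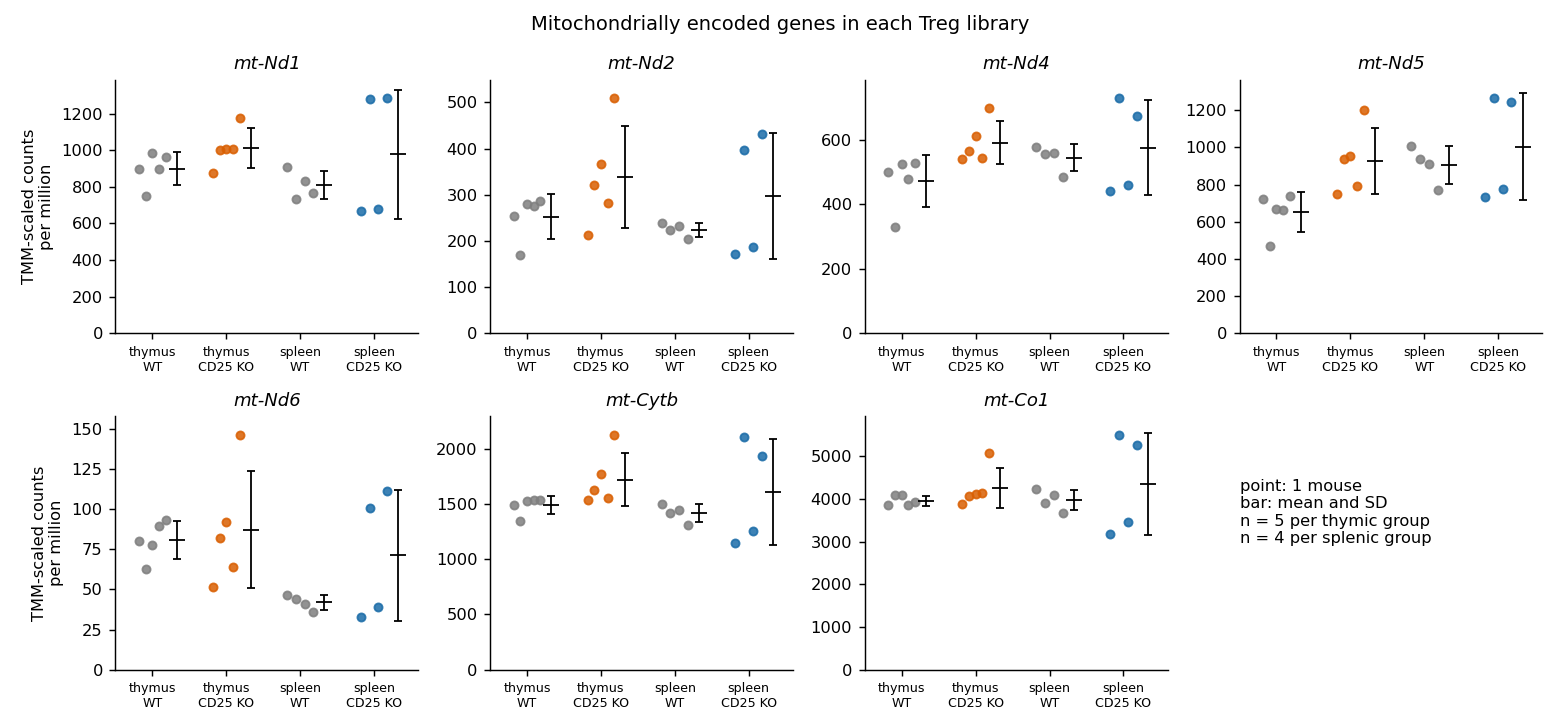
Each panel plots 1 of the 7 measured members, in TMM-scaled CPM (y axis, from 0), for the 4 groups on the x axis, with 1 point per mouse and a bar for the mean and SD (n = 5 per thymic and 4 per splenic group). In the thymus the KO points lie above the WT points for mt-Nd4, mt-Nd5 and mt-Cytb, and in the spleen 2 KO mice lie above and 2 mostly below the WT mice.

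In the spleen, again no member passed FDR < 0.01 in edgeR's quasi-likelihood test, while 9.45% of the 17463 genes tested did. All 7 had a higher mean in KO Tregs, with log2 fold changes from 0.08 to 0.77 and a median of 0.19 (all genes, -0.0065), and 1 of the 7 had an unadjusted p under 0.05, against 29.9% of all genes. Not 1 of the 7 separated the groups, as 20.5% of all genes did. The higher mean rested on KO mice 2 and 4. Without KO mouse 2 the median of the 7 log2 fold changes was 0.03, and without KO mouse 4 it was 0.09.

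mt-Nd6 differed most in the spleen. It was at 46.6, 44.1, 41.0 and 35.8 CPM in WT mice 1 to 4 and at 33, 101, 39.3 and 111 CPM in KO mice 1 to 4. KO mice 2 and 4 were far above the WT mice, KO mouse 1 below all of them and KO mouse 3 among them. The log2 fold change was 0.77 ± 0.288, with an adjusted p of 0.0819 (edgeR). It was 0.56 without KO mouse 2, 0.47 without KO mouse 4 and 1.01 without KO mouse 1, when it passed the threshold with an adjusted p of 0.00793.

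mt-Nd2 was at 238, 224, 231 and 203 CPM in splenic WT mice and at 172, 397, 186 and 432 CPM in KO mice. KO mice 1 and 3 were below and KO mice 2 and 4 above all WT mice, and the log2 fold change was 0.41 ± 0.222 with an edgeR adjusted p of 0.237. mt-Nd1 was at 908, 734, 835 and 768 CPM in WT and at 666, 1279.7, 680.4 and 1284 CPM in KO mice. The same 2 KO mice were above and the same 2 below the WT mice, with a log2 fold change of 0.27 ± 0.177 and an adjusted p of 0.333.

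For mt-Cytb, the splenic levels were 1498, 1420, 1442 and 1307 CPM in WT and 1150, 2109, 1254 and 1933 CPM in KO mice, a log2 fold change of 0.19 ± 0.146 (adjusted p = 0.429, edgeR). mt-Co1 was at 4237, 3892, 4096 and 3679 CPM in WT and at 3175, 5491, 3459 and 5266 CPM in KO mice, a log2 fold change of 0.13 ± 0.139 (adjusted p = 0.582). In both genes the KO mice again fell into 2 above and 2 below all WT mice. mt-Nd5, at 731 to 1263 CPM in KO against 768 to 1006 CPM in WT mice, and mt-Nd4, at 440.4 to 727 against 484 to 578 CPM, had log2 fold changes of 0.15 ± 0.149 and 0.08 ± 0.129, with adjusted p of 0.546 and 0.73.

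Splenic KO mice 2 and 4 also had the deepest libraries of the splenic groups, 28905133 and 32639570 counts, against 26342464 and 26017927 counts in KO mice 1 and 3. Depth is scaled out of the CPM values, and its part in the difference was not tested. The CD25 KO effect did not differ between spleen and thymus past FDR < 0.01 for any of the 7 members, and it did for 6.98% of 18686 genes (edgeR, interaction term). The differences, as spleen minus thymus on the log2 scale, ran from -0.35 for mt-Nd5 (adjusted p = 0.319) to 0.67 for mt-Nd6 (adjusted p = 0.287). With the GC trend removed the difference was -0.03 for mt-Nd5 (adjusted p = 0.924), 1.13 for mt-Nd6 (adjusted p = 0.0375) and 0.40 for mt-Nd1, against 0.11 with the trend (edgeR). Leaving out each mouse, with the trend kept, the mt-Nd6 difference of 0.67 ran from 0.36 to 0.94. All splenic libraries carry 1 date in the headers of the count table and all thymic libraries another, so tissue and date cannot be told apart.

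All members are AT-rich, and the thymic fold changes followed the base composition of the genes. The 7 measured members have a GC content of 34.1% (mt-Nd6) to 39.9% (mt-Co1), and nuclear genes tested have a median of 49%. Across 16945 genes the thymic log2 fold change fell with GC content, with a Spearman rho of -0.40. Across 17423 genes of the splenic comparison rho was -0.17. These correlations run across genes, which share libraries and are no independent replicates. The 1210 nuclear genes that lie in the members' GC range had a median thymic log2 fold change of 0.36, and 89.3% of them had a higher mean in KO Tregs. The members' median of 0.21 thus lay below that of nuclear genes of like base composition. In the spleen 1226 such nuclear genes had a median of 0.07, and the members' median was 0.19.

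**Figure D3:**
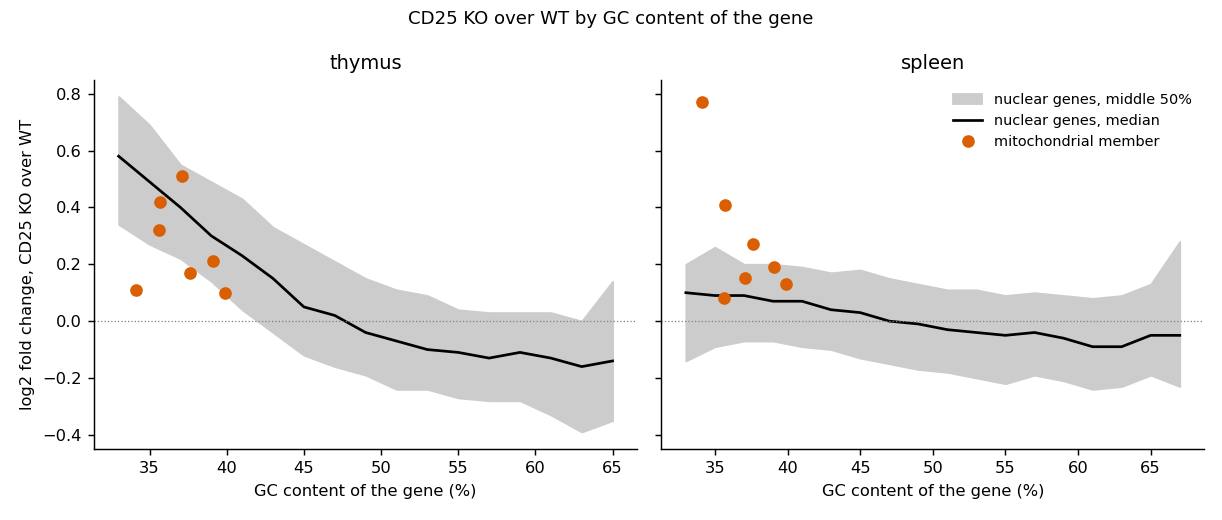
Log2 fold change of CD25 KO over WT (y axis) against GC content of the gene (x axis, %), for thymus (left) and spleen (right), with the median and middle 50% of nuclear genes in steps of GC content as a line and band and the 7 measured members as points. In the thymus the line falls with GC content, from 0.49 at 35% to -0.04 at 49%, and 4 of the 7 members lie within the band, whereas in the spleen the line is nearly flat and mt-Nd6, mt-Nd2 and mt-Nd1 lie above the band.

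A smooth GC trend was then estimated in each library from all well-counted nuclear genes. At the base composition of the members it stood between -0.48 and -0.04 on the log2 scale in the 5 thymic WT libraries and between 0.05 and 0.43 in the 5 thymic KO libraries, so the groups did not overlap. WT mouse 2, which was lowest in the members, had the lowest trend, and KO mouse 5, which was highest, had the highest. The mean log2 CPM of the 7 members was 8.94 to 9.39 in thymic WT and 9.19 to 9.92 in thymic KO libraries, and with the trend subtracted it was 9.33 to 9.58 and 9.10 to 9.49. In the spleen the trend was -0.08 to 0.01 in WT and -0.08 to 0.17 in KO libraries. It was -0.02 in splenic KO mouse 2 and 0.17 in KO mouse 4, the 2 mice with the highest levels.

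When the trend was removed in the fit, 6 of the 7 members changed sign in the thymus. The KO over WT log2 fold change was then -0.20 for mt-Nd1, -0.05 for mt-Nd2, -0.13 for mt-Nd4, -0.45 for mt-Nd6, -0.11 for mt-Cytb and -0.18 for mt-Co1, and 0.11 for mt-Nd5. None passed FDR < 0.01 (edgeR, adjusted p from 0.0594 to 0.837), while 4.64% of all genes did. At the GC content of each member, the trend itself differed between KO and WT libraries by 0.27 to 0.52 on the log2 scale in the thymus and by 0.05 to 0.06 in the spleen. In the spleen all 7 stayed higher in KO Tregs, with a median of 0.12 and mt-Nd6 at 0.69 (adjusted p = 0.102), and none passed, while 9.95% of all genes did. The direction of the thymic difference in mitochondrially encoded genes therefore depended on whether the GC trend was removed, and whether that trend is technical was not tested.

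**Figure D4:**
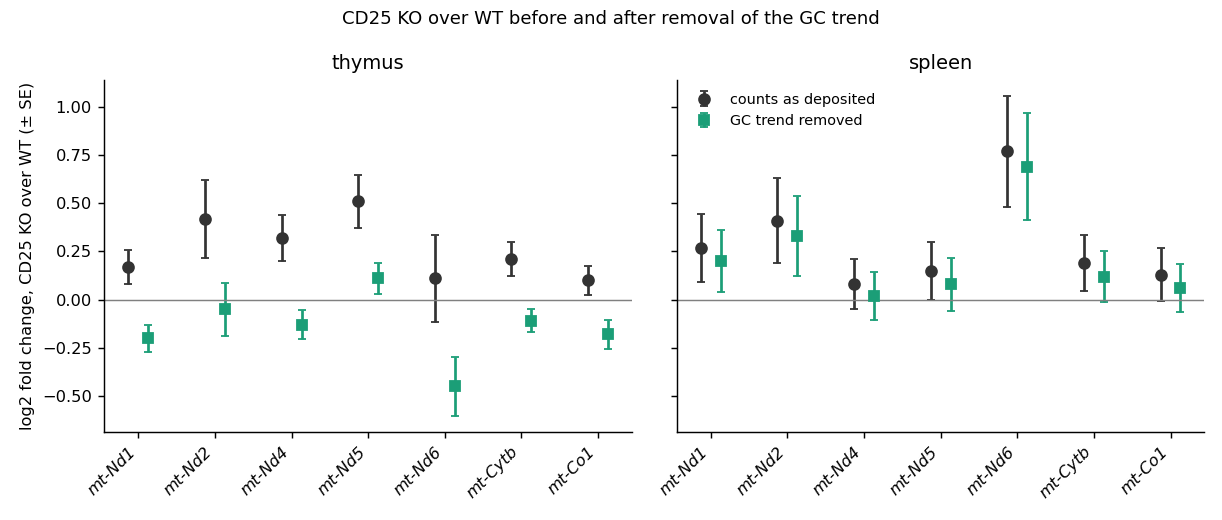
Log2 fold change of CD25 KO over WT with its SE (y axis) for the 7 measured members (x axis) in thymus (left) and spleen (right), from the deposited counts (circles) and with the GC trend of each library removed (squares). In the thymus the circles lie between 0.10 and 0.51 and 6 of 7 squares lie below 0, and in the spleen circles and squares lie above 0.

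The remaining 3 protein genes belong to the same genome but to no list of members. mt-Nd3, another membrane subunit of complex I (M, 9459 to 9806), set the thymic WT mice apart from all others. It had 0 counts in each of the 5 thymic WT libraries and 21, 55, 27, 44 and 84 counts in thymic KO mice 1 to 5. In the spleen it had 27 to 41 counts in WT and 29 to 76 counts in KO mice. Its pseudogene on chromosome 1, Gm28438, showed the reverse, with 56, 46, 37, 52 and 51 counts in thymic WT mice 1 to 5, 0 to 1 counts in thymic KO mice and 0 to 4 counts in the spleen. The sequences match at all but 1 of 345 aligned bases, as the opening 60 bases of mt-Nd3 (M, 9459 to 9518) and Gm28438 (1, 24613060 to 24613119) show, with the base that differs in capitals:
mt-Nd3: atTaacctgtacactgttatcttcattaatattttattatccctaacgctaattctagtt
Gm28438: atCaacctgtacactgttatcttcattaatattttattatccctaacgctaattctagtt

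The difference is T3C, with mt-Nd3 first and position 1 at its first base, at 9461 of the mitochondrial chromosome. Of the 274 windows of mt-Nd3, 268 were shared with Gm28438, so that the few reads which tell them apart cover its ends. Compared with a floor of 3 counts per library in thymic WT mice, mt-Nd3 was at least 17.2-fold higher in thymic KO mice (edgeR adjusted p = 0.00144). Gm28438 was at least 14.5-fold lower there against the same floor in KO mice (adjusted p = 6.05e-06). Both effects differed between spleen and thymus, with adjusted p of 0.00011 for mt-Nd3 and 0.000272 for Gm28438 (edgeR, interaction term).

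Added together, mt-Nd3 and Gm28438 held 1.66 to 2.74 CPM (unscaled) in thymic WT and 1.16 to 4.54 in thymic KO libraries, and these ranges overlapped. The share of the sum given to mt-Nd3 was 0% in thymic WT, 98.7% in thymic KO, 95.9% in splenic WT and 95.7% in splenic KO Tregs. The counts hold no bases, so the sequence that the thymic WT mice carry at this position was not read. The thymic WT mice are the only ones of the Foxp3/RFP line, and line and genotype cannot be told apart in the thymus. The tRNA gene just upstream, mt-Tg, likewise had 0 counts in the 5 thymic WT libraries and 3 to 21 counts in the thymic KO libraries. mt-Tr, the tRNA gene just downstream, had 0 to 1 counts in thymic WT and 5 to 14 counts in thymic KO libraries.

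**Figure D5:**
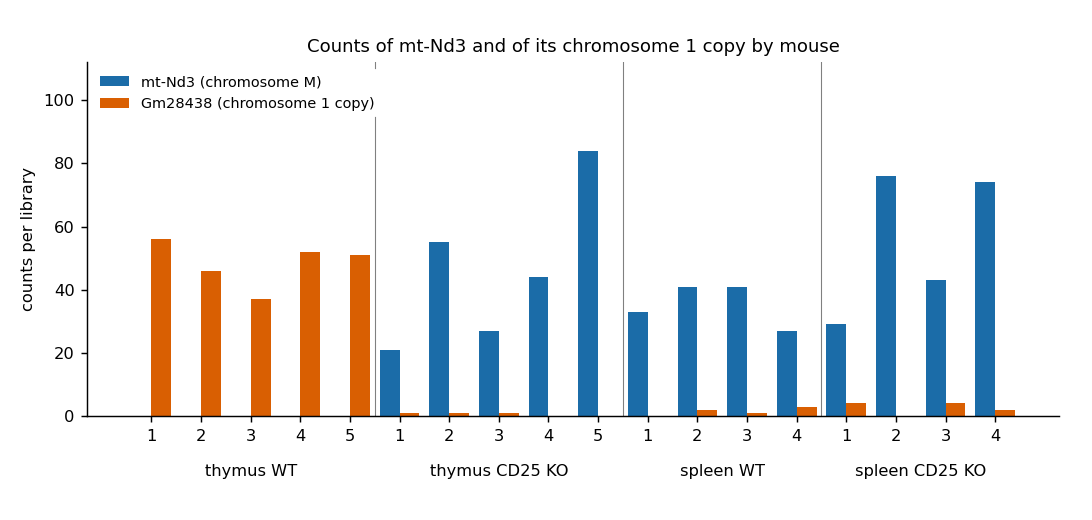
Counts per library (y axis) of mt-Nd3 and of its chromosome 1 copy Gm28438 for each of the 18 mice (x axis, by group). Thymic WT mice have 37 to 56 counts on the copy and 0 on mt-Nd3, and the other 13 mice have 21 to 84 counts on mt-Nd3 and 0 to 4 on the copy.

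The libraries had been depleted of rRNA. mt-Rnr1, the small subunit rRNA, was at 7.85, 3.66, 88.2, 2.82 and 3.22 CPM in thymic WT mice and at 2.05 to 9.09 CPM in KO mice, and mt-Rnr2, the large subunit rRNA, at 28.0, 12.4, 140, 35.9 and 38.2 CPM against 13 to 28.3 CPM. WT mouse 3 stood far above the others in both, and neither gene passed the test in the thymus (edgeR adjusted p = 0.109 for each). In the spleen mt-Rnr1 was at 17.7 to 46.3 CPM in WT and at 34.4, 84.5, 26.2 and 82.0 CPM in KO mice, and mt-Rnr2 at 21.8 to 53.4 and at 41.5, 121, 32.7 and 127.2 CPM. KO mice 2 and 4 were again the highest, and the log2 fold changes of 0.75 ± 0.321 and 1.01 ± 0.361 did not pass (adjusted p = 0.129 and 0.0693).

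Of the 22 mitochondrial tRNA genes, 10 passed the filter in each tissue and none passed the test in either. Over all genes, 6.16% passed in the thymus and 9.45% in the spleen. Nearest to the threshold in the spleen were mt-Tc, for cysteine, with a log2 fold change of 1.40 ± 0.412 (adjusted p = 0.0286, edgeR), and mt-Ta, for alanine, with 1.30 ± 0.427 (adjusted p = 0.0467). These genes are 66 and 69 bases long, so a full 75-base read also covers sequence beside the gene. Both lie on the − strand, and without strand their counts cannot be told apart from those of longer precursors. mt-Tc was at 1.60 to 3.01 CPM in splenic WT mice and at 2.47, 8.46, 2.64 and 12.1 CPM in KO mice, so that only KO mice 2 and 4 were above the WT range.

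The members form their complexes with nuclear encoded partners. Of 77 nuclear subunit genes of complexes I to V, all were tested in the thymus, where 6 were lower and 0 higher in KO Tregs (edgeR, FDR < 0.01; 2.99% of all genes were lower and 3.17% higher). Their median log2 fold change was -0.19, and 72 of 77 had a lower mean. They have a median GC content of 50.2%, and with the GC trend removed their median was -0.12 and 8 were lower. Ndufab1, the acyl carrier protein that is also a complex I subunit, fell from 35.9 ± 2.25 to 25.2 ± 3.8 CPM (log2 fold change -0.51, adjusted p = 0.00476). Atp5g1, a copy of the membrane ring subunit of ATP synthase, fell from 28.0 ± 0.818 to 20.1 ± 2.40 CPM (-0.48, adjusted p = 0.00342), and Atp5b, its catalytic beta subunit, from 457 ± 25.0 to 361 ± 25.7 CPM (-0.34, adjusted p = 0.00424). Atp5a1, the alpha subunit of ATP synthase, and Cox6a1 and Cox7b, subunits of cytochrome c oxidase, fell as well, by 0.33, 0.30 and 0.30 on the log2 scale. With the GC trend removed Atp5b, Atp5a1 and Cox6a1 no longer passed (adjusted p = 0.0128, 0.0401 and 0.161). In the spleen 0 of 75 tested subunit genes passed in either direction, and 57 had a higher mean, with a median of 0.05. With the GC trend removed 1 of the 75, of complex IV, passed as higher and 0 as lower, with a median of 0.06. In that fit 9.95% of all genes passed in either direction.

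Of the genes that maintain, copy and express the mitochondrial genome, all that passed the test are named here and in the next paragraph. Over all genes, 6.16% passed in the thymus and 9.45% in the spleen. Of 17 genes of mitochondrial DNA maintenance, Slc25a36, a carrier of pyrimidine nucleotides, rose in thymic KO Tregs from 84.3 ± 12.4 to 119 ± 12.7 CPM (adjusted p = 0.00765, edgeR; 0.0137 with the GC trend removed), and Suclg2, a subunit of succinyl-CoA ligase, fell by 0.38 on the log2 scale (adjusted p = 0.00408). In the spleen Twnk, the helicase of mitochondrial DNA, fell from 21.3 ± 0.901 to 16.5 ± 1.19 CPM (adjusted p = 0.00295). Of 10 genes of mitochondrial transcription, Mterf2, of the termination factor family, rose in the thymus by a log2 fold change of 0.62 (adjusted p = 0.00534; 0.0128 with the GC trend removed) and Mrpl12, a ribosomal protein that also binds the mitochondrial RNA polymerase, fell by 0.44 (adjusted p = 0.00847; 0.058 with the GC trend removed), and none passed in the spleen.

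Of 29 genes of mitochondrial RNA processing, Rexo2, an exonuclease of short RNAs, fell in both tissues, from 52.6 ± 0.953 to 35.6 ± 6.21 CPM in the thymus (adjusted p = 0.00397, edgeR) and from 58.0 ± 1.70 to 39.0 ± 3.30 CPM in the spleen (adjusted p = 1.62e-05). Nsun3, a methyltransferase of mitochondrial tRNA, rose in the thymus (log2 fold change 0.47, adjusted p = 0.00824; 0.0671 with the GC trend removed) and Tbrg4, which affects the stability of mitochondrial mRNA, fell in the spleen (-0.36, adjusted p = 0.000522). Of 15 genes of mitochondrial translation, 2 passed in the thymus, and both rose, where 3.17% of all genes passed as higher, and with the GC trend removed 1 of the 15 passed. Mtfmt, which formylates the initiator tRNA, rose from 17.1 ± 0.76 to 24.3 ± 1.14 CPM (adjusted p = 0.000812), and Guf1, an elongation factor, rose by 0.41 on the log2 scale (adjusted p = 0.00717), but by 0.02 with the GC trend removed (adjusted p = 0.831).

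Among 10 regulators of mitochondrial biogenesis, Myc, which drives many mitochondrial genes, fell in both tissues, from 126.8 ± 5.45 to 65.1 ± 12.3 CPM in the thymus (adjusted p = 0.000364, edgeR) and from 101 ± 7.16 to 49.5 ± 3.73 CPM in the spleen (adjusted p = 1.2e-07). Pprc1, a coactivator of respiratory genes, fell by 0.55 in the thymus and 0.41 in the spleen on the log2 scale (adjusted p = 0.0027 and 0.000112), and Gabpb1, part of a factor of respiratory genes, rose in the spleen (0.21, adjusted p = 0.00953; 0.0142 with the GC trend removed). Of 12 mitochondrial chaperones and proteases, the chaperones Hspd1, Hspe1 and Hspa9 fell in the thymus by 0.43, 0.39 and 0.37 (adjusted p = 0.00542, 0.00336 and 0.00115, edgeR). Trap1, a further chaperone, fell in the spleen by 0.22 (adjusted p = 0.00868, and 0.0104 with the GC trend removed). Over all genes, 2.99% passed as lower in the thymus and 9.45% in either direction in the spleen.

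Levels of the members were linked from library to library. Over the 10 thymic mice, each member's log2 CPM had a Pearson r with the mean of the 7 of 0.742 (mt-Co1) to 0.992 (mt-Nd2), and over the 8 splenic mice of 0.969 (mt-Nd4) to 0.995 (mt-Nd2). Each member is part of that mean, and the libraries share their GC trend, so these values are descriptive. Among 16214 genes tested in both tissues, the nuclear genes that followed the mean of the members most closely were Wdr37, Zfp758, Fam8a1, Zfp24 and Cr1l. Their lower r of the 2 tissues was 0.917, 0.896, 0.895, 0.893 and 0.89, and their GC content 42.7, 35.4, 46.3, 40.8 and 37.8%.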

How the data were processed

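RNA-seq libraries were prepared after rRNA depletion from sorted Tregs of 18 mice and sequenced as paired 75-base reads. Per the labels and the study's methods, the authors aligned the reads to GRCm38 with STAR 2.5.0b and deposited raw counts per Ensembl gene (GENCODE M13), made with featureCounts 1.5.0. The treatment of reads with several matches and of strand is not given in the sources used here. Here, identifiers were given symbols from GENCODE M21 (50376 of 50600 matched), and groups were taken from the labels (5, 5, 4 and 4 mice).

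Counts were scaled by TMM, filtered with filterByExpr within a tissue and tested with edgeR 4.0.16 in R 4.3.3 (quasi-likelihood test, Benjamini-Hochberg over all genes tested, FDR < 0.01), for KO against WT in each tissue and for the difference between tissues. This replaces DESeq2, which the study used and which was run as an alternative (version 1.42.0). The fit was tested on simulated data. The GC trend of each library was a spline with 5 degrees of freedom over nuclear genes with a mean log2 CPM above 1, and was removed as an offset. A floor of 3 counts was at most 0.174 CPM. Pseudogene matches were sought among GENCODE M21 transcripts, from which printed sequences were copied. The members and lists were chosen with earlier results of these data known, and the genes named outside the members are, of each list and tissue, up to 3 past the threshold in each direction with the largest fold change, the other mitochondrial genes, and 5 genes with the closest pattern. Alternatives were other normalizations, filters, DESeq2, joint fits, the GC correction, a replicate block and leaving out each mouse. Same-numbered thymic mice did not deviate together. The headers carry 1 date for all thymic and another for all splenic libraries, and what the date marks is not given. Replicates are separate mice, so p-values measure the spread between mice.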

Additional observations from a re-analysis of the deposited data

Results flagged for a closer look

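In groups of 4 or 5 mice, 40 sets of values were searched for a mouse that stood apart by Dixon's criterion, which chance meets in about 1 of 20 sets, and 8 did. Thymic WT mouse 2 was the lowest of its group for mt-Nd2 (169 CPM, others 253 to 286), mt-Nd4 (329.8 CPM, others 479 to 528), mt-Nd5 (470.4 CPM, others 660.4 to 738), mt-Cytb (1344 CPM, others 1494 to 1533) and the share of counts on the members (0.705%, others 0.770 to 0.795%). These 5 sets come from 1 library and are not independent. Its GC trend at the members' base composition was also the lowest of the group, at -0.48. Without this mouse the thymic log2 fold change of mt-Nd5 was 0.42 (edgeR adjusted p = 0.0469).

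Thymic WT mouse 3 was the highest of its group for mt-Rnr1 (88.2 CPM, others 2.82 to 7.85) and mt-Rnr2 (140 CPM, others 12.4 to 38.2). Thymic KO mouse 5 was the highest for mt-Co1 (5070.4 CPM, others 3891 to 4133), and its GC trend was the highest, at 0.43.

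The KO over WT log2 fold change of mt-Nd3 differed between spleen and thymus by -8.28 (spleen minus thymus, edgeR adjusted p = 0.00011). For Gm28438 the difference was 6.53 (adjusted p = 0.000272). The thymic WT mice are the only ones of the Foxp3/RFP line, so CD25 deletion and line cannot be told apart within the thymus. Splenic WT mice, which keep CD25 and are not of that line, gave 95.9% of the summed counts to mt-Nd3. The value was 95.7% in splenic KO and 98.7% in thymic KO mice, and 0% in thymic WT mice. The fitted sizes rest on groups at or near 0 counts and depend on the prior count. The cause was not tested.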

How the results depend on the processing

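Numbers of members past FDR < 0.01 changed from 0 as follows. DESeq2 called 1 in the thymus, mt-Nd5 (0.51, adjusted p = 0.00292), and it called 2763 of all 16974 genes there. A threshold of FDR < 0.05 in edgeR also called mt-Nd5, among 3951 of all 16986 genes. Without a filter on low counts 2 were called in the spleen by edgeR, mt-Nd2 (0.41, adjusted p = 0.00109) and mt-Nd6 (0.77, adjusted p = 2.18e-07). That fit called 2356 of all 29694 genes. Leaving out each mouse gave 0 to 1 in the spleen (1 without KO mouse 1, mt-Nd6), and 0 in the thymus and for the difference between tissues. Without splenic KO mouse 1, 1723 of all 17681 genes were called.

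With the GC trend removed the thymic median became -0.13, and -0.12 with the replicate block as well. In that joint fit the thymic log2 fold changes were -0.20 (mt-Nd1), -0.06 (mt-Nd2), -0.12 (mt-Nd4), -0.49 (mt-Nd6, adjusted p = 0.021), -0.11 (mt-Cytb) and -0.18 (mt-Co1). The GC trend alone gave -0.20, -0.05, -0.13, -0.45, -0.11 and -0.18. The difference between tissues, spleen minus thymus, changed sign for mt-Nd2 (0.01 with RLE, DESeq2 or no filter, 0.37 without the GC trend), mt-Nd4 (0.14) and mt-Cytb (0.23) without the GC trend, and mt-Co1 (-0.04 with upper-quartile scaling), none of them past the threshold. The cause was not tested.

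Leaving out each mouse, the median ran from 0.13 to 0.25 in the thymus and from 0.03 to 0.32 in the spleen. Ranges that crossed 0 were -0.15 to 0.25 (mt-Nd6, thymus), -0.05 to 0.19 (mt-Nd4, spleen) and 0 to 0.25 (mt-Co1, spleen). For the difference between tissues they were -0.05 to 0.25 (mt-Nd1), -0.25 to 0.19 (mt-Nd2), -0.18 to 0.12 (mt-Cytb) and -0.10 to 0.16 (mt-Co1). mt-Nd3 and Gm28438 stayed past the threshold in thymus and interaction under every alternative that tested them.

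The members' share of counts, without Gm26917 in the total, was 0.859% in thymic WT and 0.979% in thymic KO, whose mice then overlapped, and 0.9% in splenic WT and 0.995% in splenic KO Tregs. Without each mouse it was 0.762 to 0.784% and 0.861 to 0.930% in thymic WT and KO, and 0.751 to 0.804% and 0.821 to 0.98% in splenic WT and KO.

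The replicate block left 0 members called in the thymus, moved all calls from 1047 to 209, and was not used, since deviations of same-numbered mice correlated at -0.239 to 0.144 and 1 of 5 numbers was its own best match. Over all genes, thymic calls were 2763 with DESeq2, 2805 with all 18 mice in 1 fit and 371 to 428 without WT mouse 2, 3 or 5 or KO mouse 1 or 3; splenic calls fell from 1651 to 825 in the joint fit, and tissue differences went from 1305 to 2188 with DESeq2 and 817 without splenic KO mouse 2. Upper-quartile scaling moved the share of higher calls from 51.5 to 64.7% in the thymus and from 64.4 to 47.9% for the difference. At 0 to 13 counts, mt-Co2, mt-Co3 and mt-Atp6 allow no comparison.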
